A study of Arabidopsis thaliana with 12 samples.

Results

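The 5 genes described here encode proteins of the photosystems and their light-harvesting antenna, and were chosen by probe ID as the probes with a single gene name for such proteins. The rule itself uses no measured value, but it was set with earlier results of these data known. They are LHCB1.5 (AT2G34420, annotated as LHB1B2), PSAN (AT5G64040), PSBW (AT2G30570), PSBY (AT1G67740) and PSB27 (AT1G03600), out of 3439 probes on the array. Total RNA came from wild-type Arabidopsis thaliana (ecotype Columbia 0, a laboratory accession) and was measured on a 1-channel expression array. A first group of 6 samples came from light-adapted plants, and a second group of 6 came from light-adapted plants kept for 1 h in the dark. The labels give neither the tissue nor the age of the plants, and do not say that the samples were grown or extracted separately. The p-values thus cover the spread between samples alone, and that spread may be technical. In bulk RNA, fewer cells of a type and less RNA per cell cannot be told apart.

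Photosystem II splits water and passes electrons through the cytochrome complex and plastocyanin to photosystem I, which reduces ferredoxin. Both photosystems are embedded in the thylakoid membranes of the chloroplast, and their core is surrounded by chlorophyll-binding antenna proteins that collect light. All 5 genes lie in the nucleus, and their products are made in the cytosol and imported into the chloroplast. Nuclear photosynthesis genes are widely known to be under the control of light, of the circadian clock and of signals from the plastid.

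Deposited intensities were linear values from 0 to 100. Samples with neighbouring numbers (1 with 2, 3 with 4, 5 with 6) were more alike than other samples of their group. Among the 276 bright probes, those with a mean deposited intensity above 1 and all 5 members among them, their spread was 0.375 of that between other samples in the light and 0.382 in the dark. Over all probes these shares were 0.692 and 0.770, so the likeness of neighbours was weaker for dim probes. Neighbours were therefore averaged, which leaves 3 replicates per group, and each mean ± SD is over these (n = 3). Values called normalised were quantile normalised, which gives every sample the same distribution of intensities. All 5 probes were above the background limit in all 12 samples, a limit set for each sample from probes whose neighbouring sample reads 0. The closest to it was PSB27 in light-adapted sample 6, at 2.47 times the limit. This limit was higher in light-adapted samples 3 to 6 (0.0850 to 0.194 in normalised units) than in the other 8 samples (0.0289 to 0.0501). Summed over the array, deposited intensity was 3233 to 3358 in samples 3 and 4 of both groups and 2286 to 2660 in the others, a difference in overall brightness that deposited values retain. No member reached the top of the scale, and no other probe of the array was annotated to any of the 5 genes.

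Across the array, 7.76% of probes differed between light and dark by limma (267 of 3439, at a Benjamini-Hochberg adjusted p below 0.05), and among the bright probes 21.7% did (60 of 276). None of the 5 members did. This background itself depended on the fit: 0 probes passed in limma when averaged pairs were entered as a replicate block (798 were below 0.05 without adjustment), and 13 did without dark samples 1 and 2. Without adjustment LHCB1.5 and PSBW were below 0.05, 2 of 5, against 24.1% of all probes and 49.3% of bright probes. With so few genes, neither count sets the members apart from bright probes in general. Their median log2 change was 0.20, against 0.060 for bright probes and 0 for all probes. Of the members 3 had a higher mean in the dark and 2 a lower one, against 148 higher and 128 lower among bright probes.

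PSBW is a small photosystem II subunit with a single membrane span, known for stabilising the supercomplex that photosystem II forms with its antenna. Its deposited intensity in the 6 light-adapted samples had a lowest value of 11.9, a median of 19.2 and a highest of 22.1. In the 6 dark samples these were 35.3, 39.8 and 41.5. The lowest dark sample was thus above the highest light-adapted one, a complete separation upward that 5.64% of all probes and 18.5% of bright probes showed on the same scale. The means were 17.8 ± 4.81 in the light and 39.1 ± 2.298 in the dark.

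Quantile normalisation brought the groups of PSBW closer. The normalised intensity averaged 21.0 ± 6.86 in light-adapted samples and 34.6 ± 6.38 in dark ones, and the groups then overlapped, since light-adapted sample 1 (29.3) was above dark samples 3 and 4 (28.3 each). The log2 change was 0.76 (SE 0.28, 95% interval 0.0123 to 1.4995), a 1.69-fold higher level in the dark, which did not pass over all probes (adjusted p = 0.200 in limma). Each of the 6 sample numbers had the higher value in the dark, though the labels do not say that numbers match the groups. The size differed between the averaged replicates: it was 1.1965-fold for numbers 1 and 2, 1.54-fold for 3 and 4 and 2.61-fold for 5 and 6. The light-adapted replicates carried more of this spread (SD 0.453 on the log2 scale) than the dark ones (0.268).

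The call of PSBW depended on how the arrays were scaled and the replicates modelled. Scaled to a common median, it had a log2 change of 1.54 and passed (adjusted p = 0.0343 in limma), and without normalisation it had 1.17 and did not (adjusted p = 0.0761 in limma). It passed with a replicate block for each of the 6 sample numbers (adjusted p = 0.0493 in limma), whereas with the number of the averaged pair as a block it did not (adjusted p = 0.290 in limma). The value was above 0 under all 31 alternatives run, from 0.59 to 1.54.

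**Figure D1:**
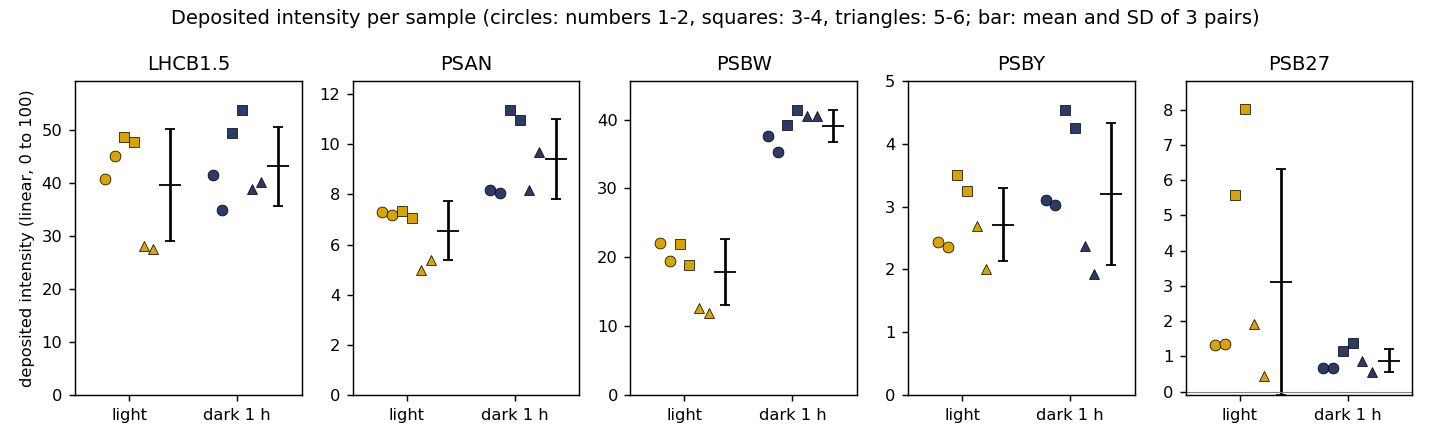
Deposited intensity (linear scale) of the 5 genes in each of 12 samples, with light-adapted samples on the left and samples after 1 h of darkness on the right of each panel. Marker shapes show the neighbouring sample numbers that were averaged, and the bar gives the mean ± SD of 3 averaged replicates. All dark samples of PSBW (35.3 to 41.5) lie above all light-adapted ones (11.9 to 22.1), while those of LHCB1.5 overlap.

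LHCB1.5 encodes a chlorophyll a/b-binding protein of the major antenna complex, the trimers that deliver light energy mainly to photosystem II. The LHCB1 genes are known to be nearly identical in their coding sequence, so the probe may also report other LHCB1 transcripts. Deposited intensities ran from 27.5 through a median of 43.0 to 48.7 in the light, and from 35.0 through 40.8 to 53.9 in the dark. These groups overlapped over most of their range. Light-adapted samples 5 and 6 (28.2 and 27.5) were the lowest of all 12. On this scale the means were 39.7 ± 10.6 in the light and 43.2 ± 7.44 in the dark, and 5 of 6 sample numbers had the higher value in the dark.

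After quantile normalisation the order of the groups turned. The normalised intensity of LHCB1.5 averaged 45.8 ± 3.24 in light-adapted samples and 37.3 ± 1.196 after darkness, a log2 change of -0.30 (SE 0.08, 95% interval -0.52 to -0.09), and it did not pass (adjusted p = 0.103 in limma). Behind this stands the place of the probe among the brightest ones of its sample, since quantile normalisation keeps only ranks. LHCB1.5 ranked 11 to 13 of 3439 in the light and 13 to 18 in the dark. The rank of 13 occurred in both groups, in light-adapted samples 3 and 4 and in dark sample 1, and no sample number was higher in the dark.

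The direction of LHCB1.5 was therefore not settled by these arrays. Its log2 change was -0.30 with quantile normalisation and -0.16 with cyclic loess, but 0.14 without normalisation, 0.11 when samples were scaled on the bright probes and 0.51 with median scaling. None of these passed (adjusted p from 0.103 to 0.825 in limma). With quantile normalisation the call also turned on the replicates, since it passed with 6 samples against 6 (adjusted p = 0.00931 in limma) and with a replicate block for each sample number (adjusted p = 0.0315 in limma), but not with the pair number as a block (adjusted p = 0.195 in limma).

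**Figure D2:**
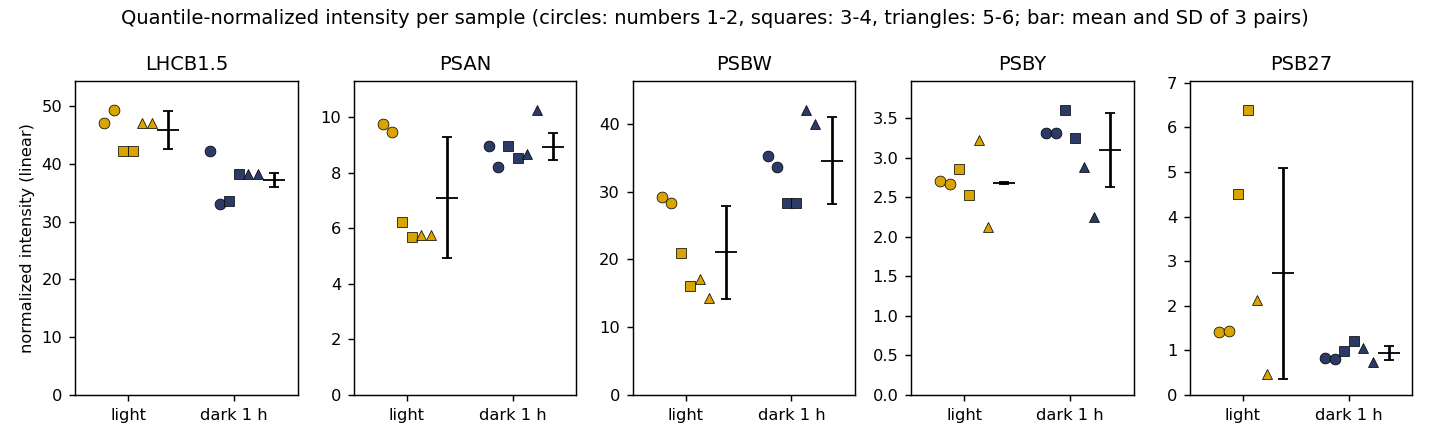
Quantile-normalised intensity (linear scale) of the same 5 genes in the same 12 samples, drawn as in the plot of deposited values. LHCB1.5 lies at 42.1 to 49.4 in the light and 33.0 to 42.1 in the dark, and none of the 5 genes has groups that separate completely on this scale, as 15.3% of all probes do.

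PSAN encodes a subunit of photosystem I on the lumen side of the thylakoid membrane, where plastocyanin docks. Its deposited intensity had a lowest, median and highest value of 4.98, 7.12 and 7.36 in the light and of 8.07, 8.93 and 11.4 in the dark. As for PSBW, all dark samples were above all light-adapted ones on this scale, which 5.64% of all probes and 18.5% of bright probes showed. The gap between the groups was small, and light-adapted samples 1 to 4 lay close together at 7.06 to 7.36 with samples 5 and 6 below them.

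With quantile normalisation the groups of PSAN overlapped. Light-adapted samples 1 and 2 had 9.76 and 9.48 and the other 4 had 5.68 to 6.22, whereas the dark samples had 8.21 to 10.3. Means were 7.11 ± 2.18 and 8.94 ± 0.478, with a log2 change of 0.37 (SE 0.23, 95% interval -0.23 to 0.97) that did not pass (adjusted p = 0.420 in limma). Light-adapted numbers 1 and 2 thus stood inside the range of the dark samples, and for them the dark level was 0.892 of the light one, against 1.47-fold for numbers 3 and 4 and 1.64-fold for 5 and 6. Without that light-adapted pair the log2 change was 0.63 and passed (adjusted p = 0.0385 in limma). It also passed with median scaling (0.89, adjusted p = 0.0350 in limma). Under every other alternative PSAN did not pass, 6 samples against 6 among them (adjusted p = 0.121 in limma). Its log2 change ran from 0.24 to 0.89 over all 31.

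PSBY is a small membrane subunit at the edge of photosystem II near cytochrome b559, made in Arabidopsis from a precursor that is cut into separate peptides. The deposited values were 2.01, 2.57 and 3.51 (lowest, median and highest) in the light and 1.92, 3.06 and 4.55 in the dark. The groups overlapped, with dark samples 3 and 4 above and dark sample 6 below all light-adapted ones. In dark samples 5 and 6 the gene had its lowest dark values, 2.38 and 1.92.

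The normalised means of PSBY were 2.68 ± 0.0105 in the light and 3.10 ± 0.468 in the dark. The 3 light-adapted replicates lay close together only after averaging, since samples 5 and 6, which form 1 replicate, differed 1.52-fold (3.22 and 2.12). The log2 change of 0.20 (SE 0.14, 95% interval -0.15 to 0.56) did not pass (adjusted p = 0.459 in limma), nor did it under any alternative (adjusted p from 0.0911). Levels in the dark were 1.23-fold and 1.27-fold those in the light for the first 2 averaged replicates and 0.974 of it for numbers 5 and 6.

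PSB27 is a lumen protein that binds photosystem II during its assembly and repair and is not part of the mature complex. It was the most variable member. In the light its deposited intensity was 1.34 and 1.36 in samples 1 and 2, 5.58 and 8.01 in samples 3 and 4, and 1.91 and 0.452 in samples 5 and 6. Samples 3 and 4 were thus far above the rest, and samples 5 and 6, averaged as neighbours, differed 4.43-fold after normalisation. The dark samples were closer to each other, with a lowest value of 0.561, a median of 0.773 and a highest of 1.37.

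All light-adapted samples but sample 6 had a higher normalised value of PSB27 than every dark sample. Means were 2.73 ± 2.36 in the light and 0.940 ± 0.146 after darkness. The log2 change was -1.09, larger in size than those of the other 4 with quantile normalisation but not with median scaling (-0.91, against 1.54 for PSBW). Its SE was 0.69 and its 95% interval ran from -2.89 to 0.70 (adjusted p = 0.429 in limma). In size 22.3% of all probes had a larger change. The dark level was 0.575 of the light one for numbers 1 and 2, 0.204 for numbers 3 and 4 and 0.881 for numbers 5 and 6. Without light-adapted samples 3 and 4 the log2 change was -0.38 (adjusted p = 0.459 in limma), a much smaller value. The sign was negative under all alternatives, from -1.58 to -0.38, and none passed.

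**Figure D3:**
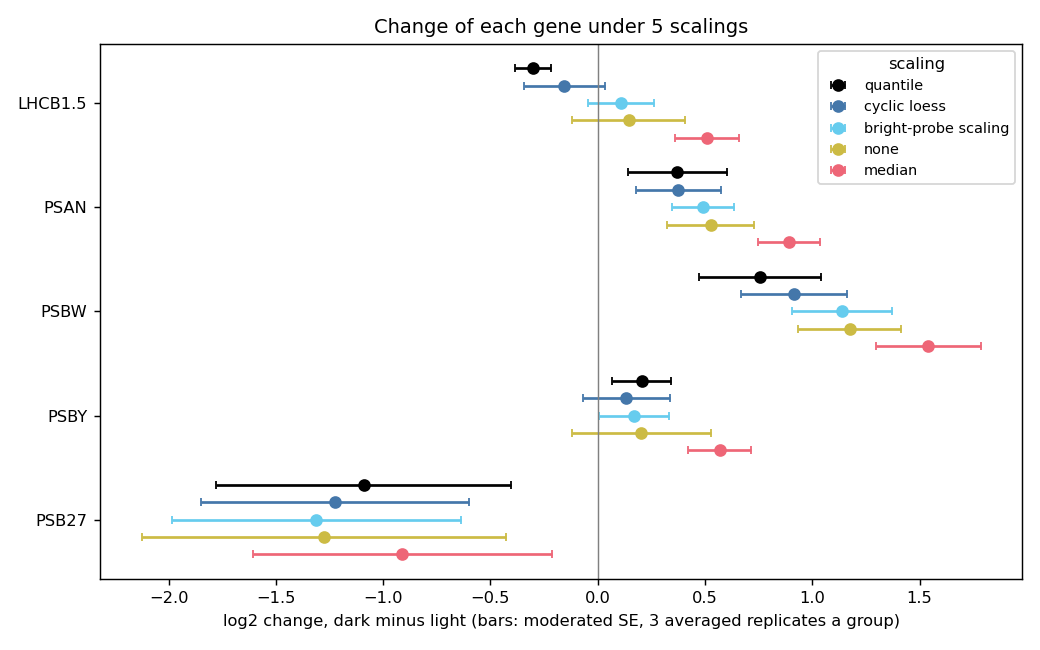
Change of each gene (log2, dark minus light, horizontal axis) under 5 ways of scaling the arrays, with bars for the standard error of the limma fit over 3 averaged replicates a group. LHCB1.5 lies on both sides of 0 (-0.30 to 0.51), while PSAN, PSBW and PSBY lie above 0 and PSB27 below 0 under each.

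Ratios of deposited values within a sample do not depend on a common scale factor of that sample, so they show whether members changed unequally. Quantile normalisation is not such a factor, so ratios of normalised values lack this property. The ratio of PSBW to LHCB1.5, a photosystem II subunit against its antenna, was 0.542, 0.430, 0.451, 0.396, 0.448 and 0.432 in light-adapted samples 1 to 6 (deposited intensities). In dark samples 1 to 6 it was 0.907, 1.01, 0.790, 0.769, 1.04 and 1.01. The groups were far apart. On the normalised scale the log2 ratio of LHCB1.5 over PSBW changed by -1.06 (SE 0.27), 2.08-fold, and on the deposited scale by -1.03. The sizes of single probes cannot be compared as transcript amounts, only their change.

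The smallest p that 3 averaged replicates against 3 allow is 0.1, and LHCB1.5 over PSBW reached it (two-sided exact permutation p = 0.1, adjusted over 10 ratios 0.143). With 6 samples against 6, which treats neighbours as independent, the exact permutation p was 0.00216 (adjusted p = 0.0108), the smallest possible. Such separation was common on this array. Of all pairs of bright probes above 0 in every sample, 46.7% had deposited ratios whose groups did not overlap, and of the 10 pairs of members 4 did. After normalisation 46.3% of those pairs separated in the 12 samples, and 2 of the 10 pairs of members. These shares are at or below the background, so the separation of ratios is nothing particular to these genes.

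PSAN over LHCB1.5 was the second ratio that separated in all 12 samples on both scales. Its deposited values had a median of 0.168 in the light (0.148 to 0.196) and 0.220 in the dark (0.197 to 0.241). The highest light-adapted and the lowest dark ratio nearly touched. On the log2 scale the change of LHCB1.5 over PSAN was -0.67 (SE 0.21) after normalisation but -0.38 on the deposited values. PSBW and PSAN, both higher in the dark on the deposited scale, also moved apart. The deposited ratio of PSBW to PSAN had a median of 2.69 in the light (2.202 to 3.02) and 4.28 in the dark (3.44 to 4.95), and these groups did not overlap.

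The 4th ratio whose deposited groups separated was that of PSB27 to PSBW, with a median of 0.111 in the light (0.0380 to 0.423) and 0.0203 in the dark (0.0138 to 0.0330). The lowest light-adapted ratio came from sample 6, the sample with the lowest light-adapted PSB27 value. PSBY to LHCB1.5 overlapped on the deposited scale, with medians of 0.0701 and 0.0769. All 10 ratio changes had the same sign with and without normalisation, but not the same size. That of LHCB1.5 over PSBY was -0.51 (log2) after normalisation and only -0.058 on the deposited values. After normalisation the replicates of 7 ratios did not overlap at 3 against 3 (exact permutation p = 0.1, adjusted p = 0.143). The exceptions were LHCB1.5 over PSB27, PSAN over PSBY and PSBW over PSBY. The share of all pairs of bright probes was not computed at 3 against 3, so this count has no background to be set against. The 10 ratios also share members and are not independent of each other, so the count does not set these genes apart.

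**Figure D4:**
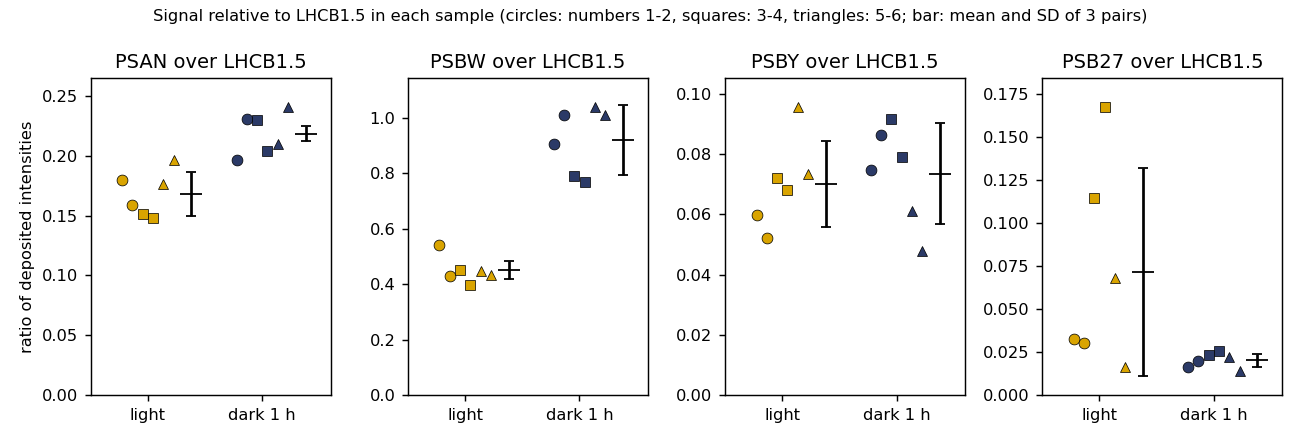
Ratio of the deposited intensity of PSAN, PSBW, PSBY and PSB27 to that of LHCB1.5 in each sample, drawn as in the plot of deposited values. PSBW over LHCB1.5 lies at 0.396 to 0.542 in the light and 0.769 to 1.04 in the dark, and PSBY over LHCB1.5 overlaps between the groups.

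Likeness of pattern was measured as the mean absolute difference between log2 values, each centred on its own mean, over 12 samples. Among the members, PSAN and PSBW were the most alike (0.211), and PSBW and PSB27 the least (1.05). Among 506 other probes with a single gene, AT1G32730 came closest to PSAN (0.129), and CCL (AT3G26740) came closest to PSBW (0.193) with AT1G32730 next (0.229). CCL is a gene named for its likeness to a clock-regulated gene, and its normalised level had a log2 change of 0.94 (SE 0.21, adjusted p = 0.0659 in limma). The closest to LHCB1.5 was AT5G53920 (0.102), the closest to PSBY AT1G51080 (0.157), and the closest to PSB27 AT1G49850 (0.458). The other second places went to AT1G51350 for LHCB1.5 (0.146), AT5G27860 for PSAN (0.196), AT3G12930 for PSBY (0.158) and AT4G24750 for PSB27 (0.536). A probe with equal values in all 12 samples would lie 0.156 from LHCB1.5 and 0.188 from PSBY. From PSAN, PSBW and PSB27 it would lie 0.283, 0.421 and 0.795. AT1G51350 for LHCB1.5 and both probes for PSBY were little closer than that.

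Other genes of photosynthesis were sparsely measured. A list of 97 genes for antenna proteins, photosystem subunits and assembly factors, electron carriers, the ATP synthase, the Calvin cycle and chlorophyll synthesis had 9 with a probe of their own, the 5 members among them. None of the 9 passed in either direction. LPA19, known as an assembly factor of photosystem II related to PSB27, had a normalised intensity of 0.124 ± 0.0132 in light-adapted plants and 0.151 ± 0.0255 after darkness (adjusted p = 0.381 in limma). Phosphoribulokinase (PRK), which regenerates the carbon dioxide acceptor of the Calvin cycle, had a log2 change of -0.89 (adjusted p = 0.0673 in limma). Its normalised light-adapted samples (lowest 4.01) and dark ones (highest 2.998) did not overlap, as was so for 15.3% of all probes. PRK is itself a bright probe, and the share among bright probes was not computed on this scale. CHLM, a methyltransferase of chlorophyll synthesis, had -0.35 (SE 0.72, adjusted p = 0.836 in limma). SBPASE, another enzyme of the Calvin cycle, was not above the background limit in any sample. A further 6 probes carried several genes of which at least 1 was on the list, and these 6 had log2 changes of -0.23 to 1.08 with a median of 0.41, none passing. No dark-induced marker, reference gene or root or seed marker of the lists had a probe of its own.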

How the data were processed

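The deposited table holds linear intensity values for 3439 probes and 12 samples. No source used here gives the scanner, background correction or normalisation, and how the authors scaled the values is unknown. Each sample has 3 to 8 probes at the common top of 100, so the brightest values may be capped or saturated. Groups and sample numbers came from the titles. The members and lists were chosen with earlier results of these data known.

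After quantile normalisation, values below the 5th percentile of those above 0 (0.0121) were set to it, log2 was taken and neighbouring numbers were averaged. The limma package (version 3.58.1, R 4.3.3) fitted every probe (lmFit, eBayes, dark minus light, Benjamini-Hochberg adjustment). The background limit is the 95th percentile of a sample's normalised values among probes whose neighbour reads 0. Ratios of members were tested with exact permutation tests. Averaging followed earlier work on these values. The number of arrays limits the precision.

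Deviations of same-numbered samples from their group means correlated between light and dark at 0.120, 0.146 and 0.208 for the 3 averaged pairs. The labels do not say that numbers pair the groups, and the fit reported has no block for them. Blocks by sample number and by averaged pair were run as alternatives. Changes given per number or per averaged replicate are descriptive only, since a match between the groups is not established.

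Named genes were the members, list genes with a probe of their own, and for each member the 2 most similar of the single-gene probes with a mean at or above the lower quartile. Gene names came from the platform annotation, updated through RefSeq (assembly TAIR10.1), with 690 of 692 single-gene probes matched to a locus. Coordinates are left out, as the probes come with no genome build. In simulated data (200 of 3439 probes changed, 5 runs, 3 against 3) the fit recovered 22.8%, 47.2%, 66.4% and 80.0% of log2 changes of 1, 2, 3 and 4, with 6.91% of calls false. The changed probes were drawn at random from the whole array, with independent normal errors. Bright probes had a smaller median SE (0.228, against 0.386 over all probes), so these shares do not describe the 5 members. Figures were drawn with matplotlib 3.10.9.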

Additional observations from a re-analysis of the deposited data

Results flagged for a closer look

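PSAN in the dark had 1 sample apart from the others: its highest normalised intensity, 10.3 in dark sample 6, was separated from the next by 0.631 of the range of the 6 samples, just above the 95% critical value of Dixon's test. Of 10 groups tested, 2 per gene, this was the only one. Chance flags about 1 in 20 groups, so 1 among 10 is not unusual. The test also takes the 6 samples as independent, though neighbours were alike. The neighbouring dark sample 5 had 8.70.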

How the results depend on the processing

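The scaling over bright probes was chosen after the data were seen. The direction of LHCB1.5 reversed without normalisation (0.14), with median scaling (0.51) and with scaling over bright probes (0.11), and the other 4 members kept theirs under all 31 alternatives. Taking neighbours as independent (6 against 6) gave 814 changed probes instead of 267, 3 list genes instead of 0, 6 of 10 ratios instead of 0, and calls for LHCB1.5 (-0.30) and PSBW (0.76). A replicate block for each sample number, over 12 samples, gave 784 probes, 3 list genes and the same 2 members. Random blocks of neighbours gave 585 probes and 2 list genes, with PSBW called (0.76, adjusted p = 0.0308 in limma) and LHCB1.5 not (0.0578). The pair number as a replicate block gave 0 probes in limma (798 at an unadjusted p under 0.05). No normalisation gave 155 probes, of which 54 were higher in the dark, against 148 of 267. Of 306 probes with scaling over bright probes 111 were higher, and of 283 with median scaling 195. Bright-probe scaling moved the median of all probes to -0.11 (log2). Median scaling called 2 list genes, PSAN (0.89) and PSBW (1.54). Their cause was not tested. Over 18 fits that left out a sample or a pair, changed probes ranged from 13 to 275 (13 without dark samples 1 and 2, 97 without 3 and 4, 63 without 5 and 6), LHCB1.5 from -0.37 to -0.25, PSAN from 0.24 to 0.63, PSBW from 0.59 to 1.02, PSBY from 0.11 to 0.34, PSB27 from -1.58 to -0.38, called list genes from 0 to 1, and called ratios were 0 in each. The log2 ratio change of PSAN over PSBY ranged from -0.0173, reversed, without dark samples 5 and 6, to 0.42. The lone list gene was PSAN, without light-adapted samples 1 and 2. The floor, filters on dim probes and the trended, robust spread estimate changed no call of a member.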
